A study of Mus musculus with 3 samples.

Results

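Spp1, Lgals3, Gpnmb, Lpl, Itgax, Cst7, Apoe, Trem2, Tyrobp and Axl are known genes of disease-associated microglia and of lipid handling. They were chosen by name, 10 genes of the 32285 in the count files. In brain disease, microglia that take up lipid debris and dying cells lower their homeostatic genes and raise genes for lipid uptake, lysosomes and secreted proteins. Part of this shift depends on the lipid-sensing receptor Trem2 and its signalling adaptor Tyrobp. Lipoprotein lipase, made from Lpl, frees fatty acids from lipoproteins, and apolipoprotein E, made from Apoe, carries lipids between cells and is made in bulk by astrocytes. Most of the other genes are scarce in resting microglia, so that few cells can decide their level.

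The libraries address which genes differ in brain cells at 24 h and at 3 d after a transient ischemic attack (TIA), in mice an occlusion of the middle cerebral artery of 5 min by a filament. Live, propidium iodide-negative cells were sorted after papain dissociation of brain tissue from which meninges and white matter had been taken away, and their transcripts were counted per cell as unique molecular identifiers (UMIs) by the 10x Genomics 3′ assay. All mice were WT males of the strain C57BL6J. The labels call the controls naive and the treated groups post stroke. Part of the study calls its controls sham, so whether the ratios include an effect of surgery could not be told. Each condition had 1 library made from the pooled cells of 3 mice, so condition and library cannot be told apart and no test between conditions is given. All intervals are 95% intervals and cover counting error alone. Both TIA libraries are set against the same naive library. The depth was 37987228 UMIs from 4804 cells in naive, 12919691 UMIs from 1619 cells at 24 h and 48636436 UMIs from 5505 cells at 3 d. Cells needed at least 500 genes and at most 7% of UMIs from mitochondrial genes, and 4018, 1225 and 4781 cells remained, with medians of 7750, 8123 and 7868 UMIs per cell. Naive and 24 h shared 3 cell barcodes, naive and 3 d 8, and 24 h and 3 d 4.

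Microglia were 974 cells in the naive library, 270 at 24 h and 1212 at 3 d. They join 2 clusters, of which the smaller gave 120, 67 and 306 of these cells. Its 10 leading genes were Cxcl10, Ccl12, Tnf, Ccl2, Lpl, Ifi204, Lilrb4a, Ifi27l2a, Egr2 and Ifi207, most of them of cytokines and the interferon response, given after their values were seen. A set of 9 microglial markers was detected in full in each library, with Cx3cr1 the most abundant of the 9, and their summed level was 15324, 11856 and 12634 counts per 1e6 UMIs of the class (CPM) in the naive, 24 h and 3 d libraries. Border macrophage markers summed to 186, 257 and 209 CPM there, with 10, 5 and 10 of 10 detected and Stab1 the most abundant. Erythroid markers, led by Hbb-bs, summed to 1281, 20.2 and 106 CPM in microglia and were highest in naive.

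At 24 h, the microglial level of Lgals3, Spp1, Lpl, Cst7 and Itgax rose, by 48.9-fold for Lgals3 at the top and 3.28-fold for Itgax at the bottom. At 3 d, Spp1 remained raised at 33.0-fold, Lgals3 and Axl were 2.57-fold and 2.61-fold above naive, and Lpl, Cst7 and Itgax were back under 2-fold. Trem2 and Tyrobp stayed near naive, with log2 ratios between -0.19 and -0.06, and Apoe lay below naive at 24 h and above it at 3 d. Of the 8 genes of the 10 that had at least 30 UMIs over the naive and 24 h microglia, 5 were at least 2-fold higher at 24 h, against 2.39% of 11515 genes, and 0 were at least 2-fold lower, against 2.64% of all genes. This minimum is over both sums, so a gene scarce in naive can reach it because it is high after TIA. The lists below share this limit. Spp1, Lgals3, Itgax and Cst7 had 4, 13, 20 and 21 UMIs in naive, and Axl, with 22 and 6, was left out. Among those of the 10 that were higher at either time, only Lpl had at least 30 UMIs in naive. The counts thus describe the genes that passed. At 3 d, 3 of 9 were at least 2-fold higher, against 1.71% of 12507 genes, and 0 at least 2-fold lower, against 0.959%. The median log2 ratio was 2.18 over the 8 at 24 h, where that of all genes was 0.05, and 0.83 over the 9 at 3 d, where that of all genes was 0.06. The median at 24 h leaves out Axl, at -0.36, and takes in genes that reached the minimum because they were high then. It is a description of these 8 genes. The counts of higher genes at 24 h and 3 d were 2 and 1 with a minimum of 100 UMIs, 1 and 0 in cells thinned to 2000 UMIs each, and 2 and 0 in the 88, 28 and 89 microglia with at most 1 UMI of other classes' markers. In these 3 settings fewer of the 10 genes reached the minimum of UMIs. The log2 ratio of Lpl at 24 h was 3.65 in thinned cells, and those of Lgals3 and Lpl were 5.74 and 4.12 in the purer cells. The count at 24 h was 3 without the 5 cells with the most UMIs of each gene. That at 3 d was 4 without regression and with all immune clusters pooled, and 2 by the mean of per-cell CPM.

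**Figure D1:**
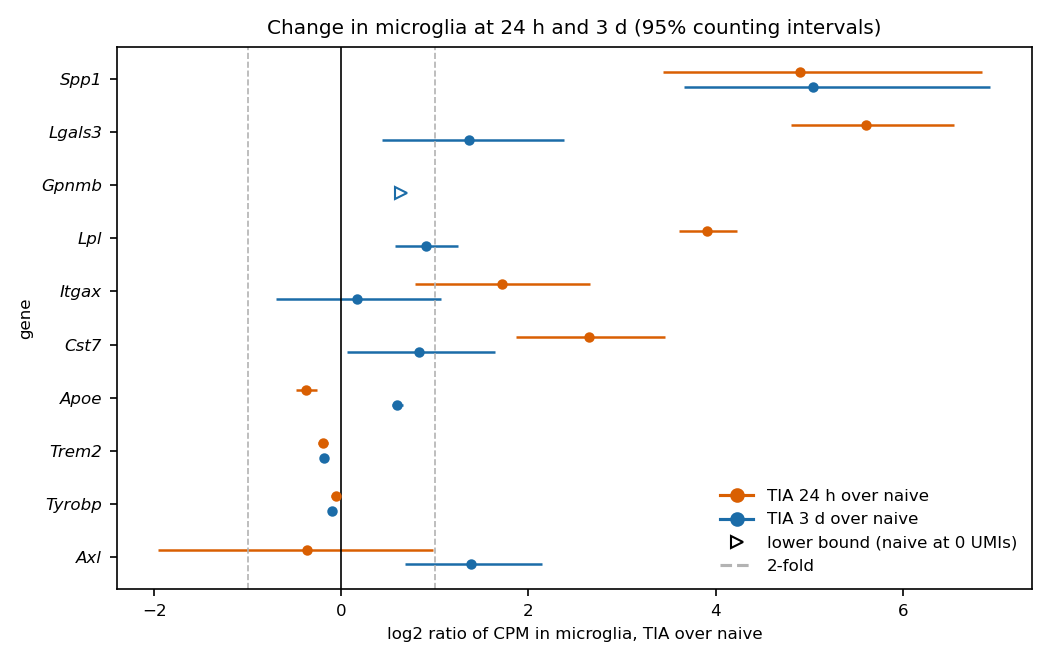
Log2 ratio of CPM in microglia, TIA over naive, for each of the 10 genes at 24 h and at 3 d, with 95% counting intervals; the triangle is a lower bound for a gene at 0 UMIs in naive. Lgals3, Spp1 and Lpl lie farthest to the right at 24 h, with log2 ratios of 5.61, 4.90 and 3.91, and at 3 d Spp1 does, at 5.04.

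Trem2 (ENSMUSG00000023992, chromosome 17, 48346401 to 48354147 in GRCm38) encodes the lipid-sensing receptor. Its level in microglia was 1522 CPM in naive (interval 1494 to 1549), 1330 at 24 h (1288 to 1374) and 1336 at 3 d (1314 to 1359). The naive library was thus the highest, and both TIA libraries had a log2 ratio of -0.19. Tyrobp (ENSMUSG00000030579, chromosome 7, 30413760 to 30417585), the adaptor that carries the signal of Trem2 into the cell, stood at 1612, 1546 and 1501 CPM, with log2 ratios of -0.06 at 24 h (-0.11 to -0.01) and -0.10 at 3 d (-0.14 to -0.07). The sign for Tyrobp depended on the cells taken as microglia, with 0.041 at 24 h when all immune clusters were pooled and 0.20 at 24 h and 0.063 at 3 d in the cells with at most 1 UMI of other classes' markers, where Trem2 had -0.080 and -0.025. Trem2 was detected in 99.1%, 99.6% and 99.5% of microglia in the naive, 24 h and 3 d libraries and Tyrobp in 98.7%, 100% and 98.8%, so that the receptor and its adaptor were present in nearly all of these cells before and after TIA. The 10 measured genes of their signalling path, such as the kinase Syk and the phospholipase Plcg2, had 0 at least 2-fold changes at either time and median log2 ratios of 0.04 and 0.15. Plcg2 stood at 228, 279 and 278 CPM, a log2 ratio of 0.29 at both times, and Inpp5d, the lipid phosphatase that opposes this path, at 1426, 1607 and 1719 CPM, with log2 ratios of 0.17 and 0.27. Plcg2, Syk and Inpp5d were chosen after their values were seen.

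Axl (ENSMUSG00000002602, chromosome 7, 25757273 to 25788705), a receptor kinase of the TAM family that takes part in the clearance of dying cells, had 22 UMIs in naive microglia, 6 at 24 h and 74 at 3 d. These are 2.83, 2.20 and 7.39 CPM, and the 3 d library stands out. The log2 ratio was -0.36 at 24 h (-1.96 to 0.98) and 1.38 at 3 d (0.68 to 2.14). Axl was found in 44 of the 1212 microglia at 3 d and in 17 of 974 in naive. By the mean of per-cell CPM the log2 ratio at 3 d was 0.98, below 2-fold. The other TAM genes did not move with it, since the receptor Mertk stood at 1741, 1707 and 1791 CPM, the ligand Gas6 at 84.8, 69.3 and 79.1 CPM and the ligand Pros1 at 288, 260 and 287 CPM. Tyro3 had 6, 1 and 4 UMIs.

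Lpl (ENSMUSG00000015568, chromosome 8, 68880491 to 68907448) had 105 UMIs in naive microglia, 555 at 24 h and 253 at 3 d. Its level was 13.5 CPM (11.1 to 16.4) in naive, 204 (187 to 221) at 24 h and 25.3 (22.3 to 28.6) at 3 d. The 24 h library was by far the highest, and at 3 d the level lay between the others. The log2 ratio was 3.91 at 24 h (3.61 to 4.23) and 0.90 at 3 d (0.57 to 1.25), and from 24 h to 3 d Lpl fell by 3.01 on the log2 scale. The 3 d ratio depended on the cells taken as microglia, with 1.87 when clustering was done without regression, 1.74 with all immune clusters pooled and -0.63 in cells nearly free of other classes' markers. Of the genes known to act on the lipase, its folding factor Lmf1 stood at 35.4, 33.4 and 31.9 CPM in microglia, the anchor Gpihbp1 had 0 UMIs in each library, and the inhibitor Angptl4 had 4, 2 and 5 UMIs.

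Apoe (ENSMUSG00000002985, chromosome 7, 19696109 to 19699188) had 3195, 866 and 6236 UMIs in microglia, or 411 CPM in naive (397 to 426), 318 at 24 h (297 to 339) and 623 at 3 d (608 to 639). The lowest level was thus at 24 h and the highest at 3 d. The log2 ratio was -0.37 at 24 h (-0.48 to -0.26) and 0.60 at 3 d (0.54 to 0.66). The 5 microglia with the most Apoe held 40.5% of its UMIs in naive, 37.9% at 24 h and 17.0% at 3 d, and without them the levels were 246, 202 and 522 CPM and the log2 ratios -0.29 and 1.08. Both signs turned when all immune clusters were pooled, to 0.47 at 24 h and -0.36 at 3 d. In the cells with at most 1 UMI of other classes' markers, the log2 ratios were -1.44 at 24 h and -0.56 at 3 d. Astrocyte markers in microglia, where Slc1a3 led and 9 of 9 were detected in each library, summed to 374, 439 and 496 CPM, and microglia held 1.10, 0.723 and 1.26 UMIs of Apoe for each UMI of these markers, against 0.641, 0.710 and 0.699 in astrocytes. The part of astrocyte RNA in the microglial level of Apoe was not tested.

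Spp1 (ENSMUSG00000029304, chromosome 5, 104435118 to 104441050) encodes osteopontin, a secreted ligand of integrins and Cd44. It had 4 UMIs in naive microglia, 42 at 24 h and 170 at 3 d, or 0.515 CPM (0.14 to 1.32), 15.4 (11.1 to 20.8) and 17.0 (14.5 to 19.7). Both TIA libraries were far above naive, with log2 ratios of 4.90 (3.44 to 6.84) and 5.04 (3.66 to 6.94), and their intervals overlap. These UMIs lay in 4, 5 and 17 cells. At 24 h a single cell held 30 of the 42, and with the 5 highest cells of each library left out there were 0 UMIs in naive and at 24 h, and no ratio can be given. At 3 d the highest cell held 44 UMIs, and without the 5 highest cells the log2 ratio was at least 2.81. Cd44, which binds osteopontin, stood at 6.95, 10.3 and 6.39 CPM in microglia.

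Lgals3 (ENSMUSG00000050335, chromosome 14, 47367751 to 47386160) encodes galectin-3, a sugar-binding protein that gathers at damaged lysosomes and is also secreted. It had 13 UMIs in naive microglia, 223 at 24 h and 43 at 3 d, or 1.67 CPM (0.891 to 2.86), 81.8 (71.4 to 93.2) and 4.30 (3.11 to 5.79). The 24 h library was far above the others, with a log2 ratio of 5.61 (4.81 to 6.54), and at 3 d the ratio was 1.36 (0.44 to 2.38). From 24 h to 3 d, Lgals3 fell by 4.25 on the log2 scale. With all immune clusters pooled, the log2 ratio at 24 h was 3.58, and without regression that at 3 d was 2.78. Of 4 related genes measured, 3 of other galectins and that of the galectin-binding protein Lgals3bp, Lgals1 rose at 24 h, from 5.92 CPM to 50.6 CPM, and stood at 4.60 CPM at 3 d. Lgals3bp, chosen after its values were seen, stood at 59.6, 107 and 137 CPM, with log2 ratios of 0.84 at 24 h (0.62 to 1.06) and 1.2 at 3 d (1.05 to 1.36).

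Cst7 (ENSMUSG00000068129, chromosome 2, 150570415 to 150578944) encodes cystatin F, an inhibitor of lysosomal cathepsins. It had 21, 46 and 48 UMIs, or 2.70 CPM (1.67 to 4.13) in naive, 16.9 (12.4 to 22.5) at 24 h and 4.80 (3.54 to 6.36) at 3 d. The 24 h library was again the highest, with a log2 ratio of 2.64 (1.87 to 3.46), against 0.83 at 3 d (0.06 to 1.64). The 4 cathepsins it acts on had 0 at least 2-fold changes and medians of 0.23 at 24 h and -0.01 at 3 d, with Ctsc at 401, 531 and 390 CPM and Ctsl at 904, 1129 and 893 CPM.

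Itgax (ENSMUSG00000030789, chromosome 7, 128129547 to 128150657) encodes CD11c, an integrin chain that pairs with the beta2 chain Itgb2. It had 20, 23 and 29 UMIs, or 2.57 CPM (1.57 to 3.98), 8.43 (5.35 to 12.7) and 2.90 (1.94 to 4.16), so that 24 h was the highest library. The log2 ratio was 1.71 at 24 h (0.78 to 2.65) and 0.17 at 3 d (-0.70 to 1.07). Its partner Itgb2 stood at 169, 181 and 170 CPM, and Itgam, the CD11b chain of resting microglia, at 581, 382 and 528 CPM, a log2 ratio of -0.60 at 24 h.

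Gpnmb (ENSMUSG00000029816, chromosome 6, 49036546 to 49070929), a membrane glycoprotein of lipid-laden phagocytes, had 0 UMIs in naive microglia, 0 at 24 h and 6 at 3 d. The 6 UMIs lay in 2 of 1212 cells, 5 of them in a single cell, and the 3 d level was at least 1.55-fold higher than naive when 3 UMIs are taken as the limit for naive. The 0 of 974 naive cells and 0 of 270 cells at 24 h allow levels of up to 0.386 and 1.1 CPM. Gpnmb thus stayed near the limit of detection in microglia at each time.

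The genes that rose were found in few microglia. Since deeper cells show a scarce gene more often, each cell was thinned at random to 2000 UMIs, which left out 12, 3 and 8 shallower microglia and 9, 13 and 16 shallower astrocytes in the naive, 24 h and 3 d libraries. Median depth was 7785.5, 9338.5 and 7666.5 UMIs in microglia and 9334, 11495 and 9307 in astrocytes, set beside microglia as a class that is not immune. Whether UMIs in astrocytes came from free RNA, doublets or the cells themselves was not tested. Lpl was then found in 1.87% of naive microglia, 7.12% at 24 h and 3.16% at 3 d, against 0%, 0.442% and 0.0709% of astrocytes. Lgals3 was found in 0.208%, 4.87% and 0.664% of microglia, against 0.226%, 1.33% and 0.354% of astrocytes. Its share lay above that of astrocytes at 24 h. At 3 d, where 8 of 1204 thinned microglia held it, the share was also higher, but these are too few cells to set the classes apart. In naive, where 2 of 962 thinned microglia held it, the shares were about equal. Cst7 was found in 0.832%, 4.49% and 0.581% of microglia and in 0%, 0.885% and 0% of astrocytes. Itgax was found in 0.312%, 1.5% and 0.415% of microglia and in 0% of astrocytes of each library. Spp1 was found in 0%, 0.749% and 0.664% of microglia and in 0% of astrocytes. For each of these genes 24 h had the highest share among thinned microglia. For Spp1 this rests on 2 of 267 cells at 24 h and 8 of 1204 at 3 d, too few to order these times. Itgax was held by only 3, 4 and 5 thinned microglia in the naive, 24 h and 3 d libraries. With 3 cells taken as the limit, a share of 0% allows up to 0.312% in naive microglia and up to 0.339%, 1.33% and 0.213% in the astrocytes of the naive, 24 h and 3 d libraries. Without thinning, the naive, 24 h and 3 d shares were 6.37%, 11.5% and 8.25% for Lpl, 0.821%, 7.41% and 1.32% for Lgals3, 2.05%, 10.7% and 3.14% for Cst7, 1.54%, 7.04% and 2.39% for Itgax and 0.411%, 1.85% and 1.40% for Spp1.

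Apoe was found in 26.3%, 22.5% and 43.7% of thinned microglia and in 58.4%, 47.8% and 80.3% without thinning. In neuron-like cells it was found in 20.0%, 13% and 28.1% when thinned and in 46.2%, 33.9% and 67.5% without thinning, also highest at 3 d, and the part of free RNA in these shares was not tested. Trem2 was found in 92.4%, 91.0% and 90.2% of thinned microglia, against 4.80%, 1% and 4.41% of thinned neuron-like cells, from which 66, 12 and 12 shallower cells were left out and whose median depth was 7133, 8700.5 and 8305 UMIs. Tyrobp was found in 4.25%, 2% and 4.13% of those neuron-like cells. The receptor and its adaptor were thus found in most microglia, while Lpl, Lgals3 and Cst7 were found in a small share of them at 24 h. The share of a scarce gene also depends on its level and on depth. For Cst7, a low share does not show that few microglia express it.

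At 24 h, the UMIs of Lgals3 and Lpl were also held by few cells. The 5 microglia with the most Lgals3 held 76.9% of its UMIs in naive, 62.8% at 24 h and 67.4% at 3 d. For Lpl the 5 highest cells held 31.4%, 54.2% and 26.5%, with up to 75 UMIs in a cell at 24 h, against 11 in naive. For Cst7 they held 28.6%, 37.0% and 22.9%, and for Itgax 50%, 39.1% and 17.2%. With so few UMIs the shares of Cst7 and Itgax are largely set by the count. Cst7 in naive had 21 UMIs in 20 cells, and Itgax at 3 d had 29 UMIs in 29 cells. The classes differ in size, and at 1% of the cells, the 10, 3 and 12 highest, the shares of Lpl were 45.7%, 37.3% and 39.9%. Without the 5 highest cells of each library the 24 h log2 ratio was 6.36 for Lgals3, 3.36 for Lpl, 2.50 for Cst7 and 2.03 for Itgax, and the 3 d ratio was 1.86 for Lgals3, 1.00 for Lpl, 0.94 for Cst7 and 0.89 for Itgax (-0.22 to 2.12).

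**Figure D2:**
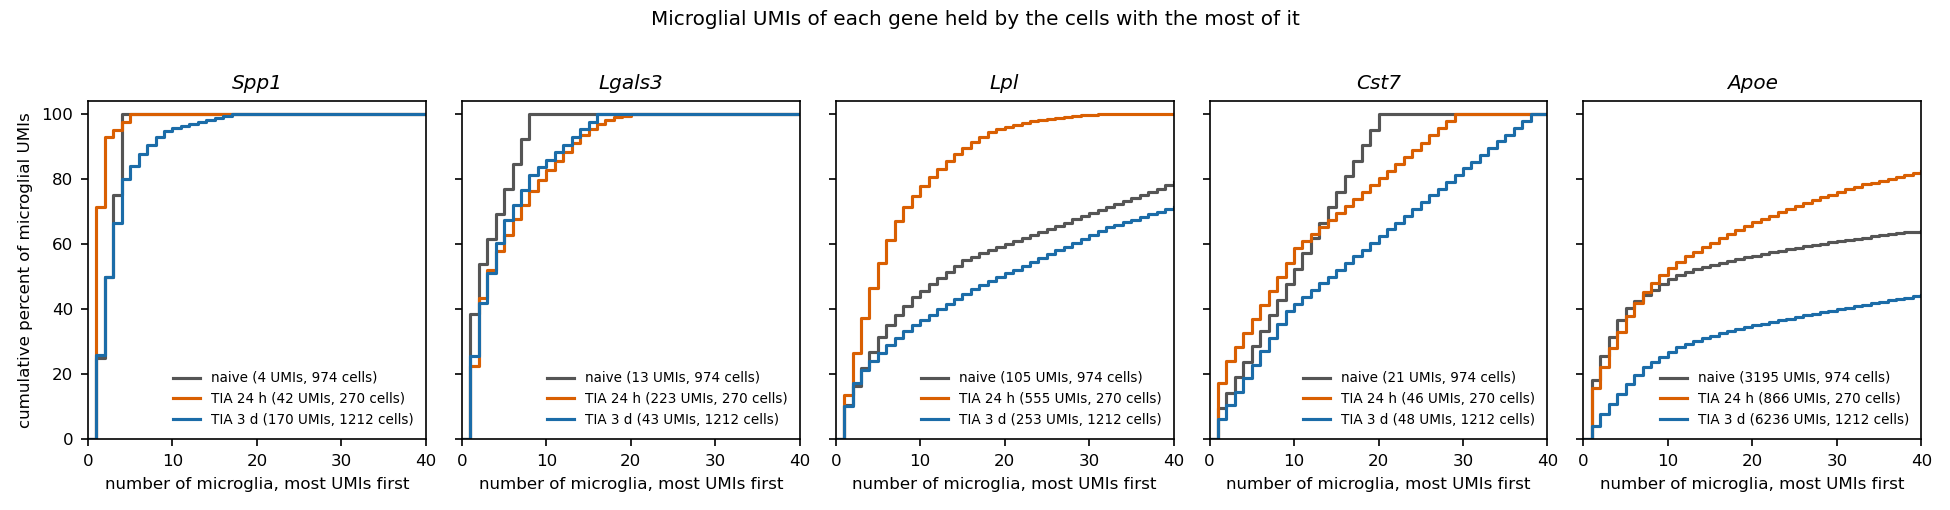
Cumulative percent of the microglial UMIs of Spp1, Lgals3, Lpl, Cst7 and Apoe against the number of microglia, taken from the cell with the most UMIs down, in each library. At 24 h the curve of Lpl reaches 54.2% after 5 cells, and that of Apoe at 3 d reaches 17.0%.

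Some of these genes shared cells. Of the 6 scarce genes Spp1, Lgals3, Gpnmb, Lpl, Itgax and Cst7, at least 2 were found in 2 of 962 thinned microglia in naive, in 15 of 267 at 24 h and in 3 of 1204 at 3 d. These are 0.208%, 5.62% (3.18 to 9.10) and 0.249%, and the 24 h library stands apart. In thinned astrocytes at least 2 were found in 0, 1 and 1 cells, and at least 3 were found in 0 thinned microglia of each library. Without thinning, at least 2 were found in 9 of 974, 24 of 270 and 31 of 1212 microglia, and at least 3 in 2, 11 and 12. Of the thinned microglia with Lgals3, 1 of 2 in naive, 10 of 13 at 24 h and 1 of 8 at 3 d also held Lpl, and without thinning 4 of 8, 20 of 20 and 8 of 16.

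The 15 microglia of the 24 h library with at least 2 of the scarce genes had a median of 18445 UMIs, and the 232 with none had 9102.5. Their 9 homeostatic genes summed to 7624 CPM, against 15253 CPM in the 232, and P2ry12, a purinergic receptor of resting microglia, stood at 495 against 1896 CPM. Higher in the 15 were the lysosomal protease Ctsb (4889 against 1280 CPM), the lipid droplet coat Plin2 (297 against 35.4 CPM) and the inhibitory receptor Lilrb4a (597 against 13.3 CPM). Apoe was lower in them, at 101 against 344 CPM, as were astrocyte markers, at 108 against 504 CPM, and the part of astrocyte RNA in this was not tested. Trem2 differed little, at 1274 against 1326 CPM. Ctsb and Plin2 were chosen after their values were seen. Border macrophage markers summed to 328 against 250.2 CPM and monocyte markers to 97.7 against 8.74 CPM. The protease Mmp12, chosen after its values were seen, had 117 UMIs in 12 microglia at 24 h, against 0 UMIs in naive and 1 at 3 d, and stood at 380 CPM in the 15. The part of the greater depth of these cells in the co-detection was not tested.

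When the 3231 cells of the immune clusters were clustered alone, 1 of 8 sub-clusters had 2 of the 10 genes, Lpl and Lgals3, among its 10 leading genes, beside Mmp12, Lilrb4a and Adam8. It held 61 cells, 8 from naive, 31 from 24 h and 22 from 3 d, and 54 of them were in the microglia class. Its microglial markers summed to 8998, 8209 and 9438 CPM with 9 of 9 detected in each library and Cx3cr1 the most abundant of them, and monocyte markers summed to 0, 50.6 and 73.7 CPM. At 24 h it held 96.7% of the Lpl UMIs, 83.3% of the Lgals3 UMIs and 51.9% of the Spp1 UMIs of all immune cells. At 3 d the shares of Lpl and Lgals3 were 39.6% and 18.0%, and Spp1 had 0 UMIs in it. A sub-cluster of 213 cells led by interferon response genes had 187 cells from 3 d. At that time it held 64.0% of the immune Spp1 UMIs, 15.9% of Lpl and 17.5% of Lgals3. The border macrophage sub-cluster then held 30.8% of Lgals3, and 61 cells of a sub-cluster named erythroid held 25% of Spp1 and 18.6% of Lpl. Of the 17 microglia with Spp1 at 3 d, 7 also held Lpl and 3 Lgals3. These cells were grouped with the 10 genes among the variable features, so their high levels in the sub-cluster are a description of it.

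Of 24 other disease-associated genes measured at 24 h, 2 were at least 2-fold higher and 1 at least 2-fold lower, 19 lay above 0, and the median log2 ratio was 0.29, or 0.59 in the cells with at most 1 UMI of other classes' markers. At 3 d, 1 of 24 was at least 2-fold higher, 14 lay above 0, and the median was 0.02. Over all genes the medians were 0.05 and 0.06, and 2.39% and 1.71% were at least 2-fold higher. The largest rise was that of Lilrb4a, from 2.19 CPM to 103 CPM at 24 h and 7.99 CPM at 3 d, with log2 ratios of 5.56 and 1.87. With 17 UMIs in naive and 282 at 24 h, Lilrb4a was counted then through the 24 h library. Fabp5, a fatty acid binding protein, fell by 1.81 on the log2 scale at 24 h, from 12.9 CPM to 3.67 CPM. Ctsb had 1002, 1951 and 1022 CPM, a log2 ratio of 0.96 at 24 h. All 9 homeostatic genes lay below naive at both times, with 0 at least 2-fold lower and medians of -0.40 and -0.21, and P2ry12 and Siglech had the lowest ratios of that list at 24 h, at -0.74 and -0.65, as P2ry13 and Gpr34 had at 3 d, at -0.48 and -0.35.

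Among the lipid uptake receptors, 1 of 4 measured at 24 h and 1 of 5 at 3 d was at least 2-fold higher, 4 of 4 and 5 of 5 lay above 0, and the medians were 0.61 and 0.34. This was Msr1, a scavenger receptor, which had 2.45 CPM in naive, 43.3 at 24 h and 7.49 at 3 d, with a log2 ratio of 4.15 at 24 h. Among the lipid droplet and fatty acid genes, 2 of 10 were at least 2-fold higher and 1 lower at 24 h, with 8 of 10 above 0 and a median of 0.57. At 3 d, 2 of 13 were higher, with 12 of 13 above 0 and a median of 0.22. At 24 h the higher ones were Plin2 and Pnpla2, both chosen after their values were seen, at log2 ratios of 1.82 and 1.02, and the lower one was Fabp5. Plin2 and Fabp5 are also counted among the other disease-associated genes. Those at 3 d were Ch25h, which makes an oxysterol, and Dgat2, an enzyme of triglyceride synthesis. Ch25h had 2 UMIs in naive and 29 at 3 d, and Dgat2 had 7 and 38 UMIs. Their log2 ratios were 3.49 (1.51 to 6.61) and 2.08 (0.89 to 3.48). Both were counted then through the 3 d library, and at 24 h neither reached the minimum of UMIs. Ch25h had 9 UMIs at 24 h and a log2 ratio of 3.68 (1.41 to 6.93). Dgat2 had 7 UMIs at 24 h and a log2 ratio of 1.51 (-0.23 to 3.25). The rise of Ch25h is thus not shown to belong to 3 d alone. The 4 cholesterol efflux genes and the 5 lysosomal lipid genes had 0 at least 2-fold changes, with medians of 0.19 and 0.14 at 24 h and -0.10 and 0.03 at 3 d. The cholesterol exporters Abca1 and Abcg1, chosen after their values were seen, stood at 484, 563 and 506 CPM and at 132, 184 and 127 CPM. The transcription factors of the MiT family and others had 0 changes of 5 at both times, with medians of -0.01 and 0.05, and the osteopontin receptors 0 of 6 and 0 of 7, with medians of -0.18 and 0.02. The 2 beta2 integrin genes had medians of -0.25 and -0.07, the 3 TAM genes -0.15 and 0.00, the 4 galectin-related genes 0.40 and 0.08, with 1 of the 4 at least 2-fold higher at each time, and the 1 measured lipase partner -0.08 and -0.15.

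Outside microglia, the genes fell into those of immune cells, those of astrocytes and those of pericytes. Compared were 7 cell groups, without fibroblasts, erythroid cells, progenitors and the unnamed immune clusters. Of these others, the 25 erythroid cells at 24 h held 10.6% of the Lgals3 UMIs and 12.3% of the Spp1 UMIs of their library. Among the 7 groups and by the mean of the 3 libraries, Lpl, Trem2 and Tyrobp were highest in microglia with border macrophages next, and Lgals3, Itgax and Cst7 were highest in border macrophages with microglia next. The ranges over the libraries of these neighbours overlap except for Trem2. Apoe was highest in astrocytes, ahead of border macrophages, whose range of 2641 to 13007 CPM overlaps that of astrocytes, 11610 to 12869 CPM. It was lowest in microglia, whose range of 318 to 623 CPM overlaps that of neuron-like cells. Among the 7 groups, Axl and Spp1 were highest in pericytes. The range of Axl there, 203 to 243 CPM, does not overlap that of astrocytes, ranked next, while the range of Spp1 overlaps that of border macrophages. The 9, 2 and 11 fibroblast cells, not among these groups, held 60.1%, 3.87% and 11.4% of the Spp1 UMIs of their libraries. Gpnmb was highest in astrocytes, at 2.02, 3.16 and 2.55 CPM. Those levels do not overlap the range of the class ranked next, endothelial cells, at 0 to 1.43 CPM, when 0 UMIs are taken as 0. Endothelial cells had 0 UMIs at 24 h, and with these set to the limit of 3 UMIs the ranges overlap.

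**Figure D3:**
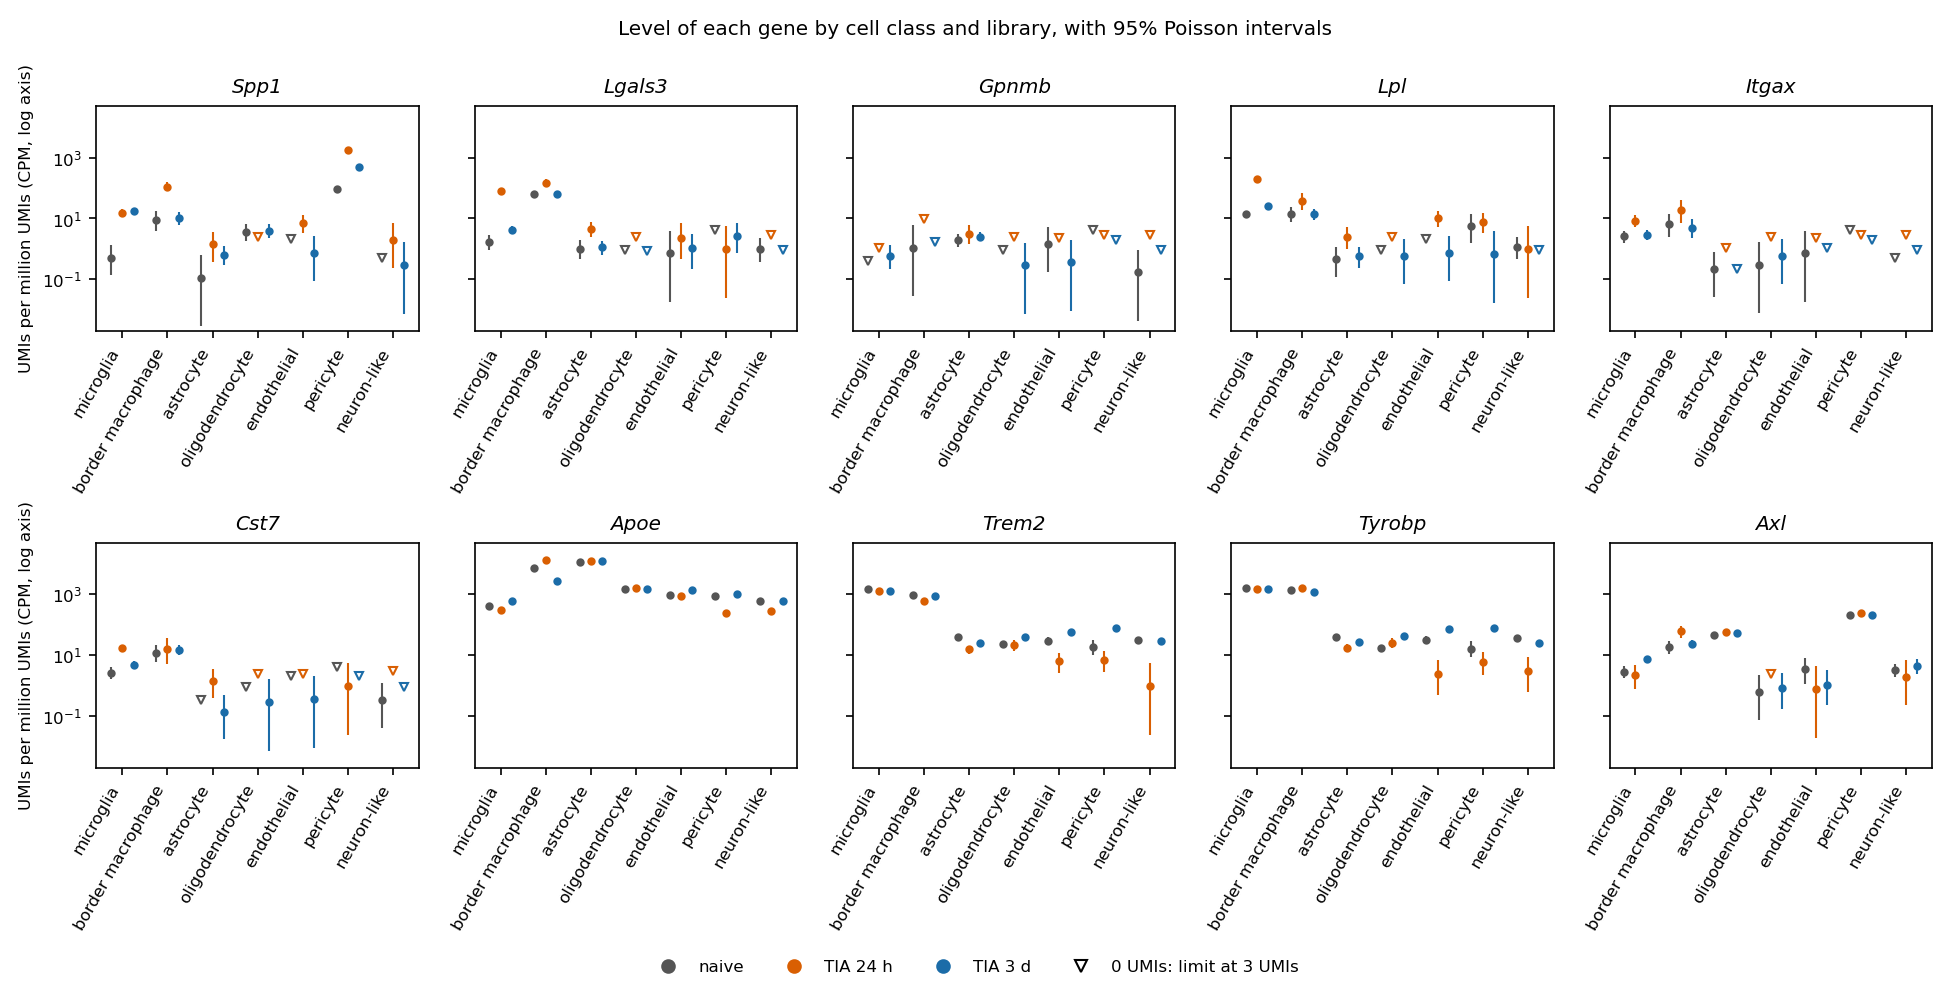
Level of each gene in CPM on a log axis in 7 cell groups and 3 libraries, with 95% Poisson intervals; open triangles mark 0 UMIs, drawn at the limit of 3 UMIs. Spp1 in pericytes goes from 91.2 CPM in naive to 1722 CPM at 24 h, and Trem2 and Tyrobp are highest in microglia and border macrophages.

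Spp1 rose most in UMIs in pericytes, the mural cells of small vessels. These were 159 cells in naive, 182 at 24 h and 327 at 3 d, with all 8 pericyte markers detected, Vtn the most abundant, and a summed marker level of 28996, 27569 and 25575 CPM. Spp1 had 66, 1748 and 755 UMIs there, or 91.2 CPM (70.5 to 116), 1722 (1643 to 1805) and 507 (471 to 544). The 24 h library was the highest and the 3 d library lay between, with log2 ratios of 4.24 (3.88 to 4.62) and 2.47 (2.11 to 2.86). The gene was found in 9.43%, 49.5% and 33.6% of pericytes, and in 7.1%, 42.9% and 26.2% of those thinned to 2000 UMIs, from which 4, 7 and 22 shallower cells were left out, with median depths of 4294, 5275 and 3906 UMIs. The 5 highest cells held 68.2%, 34.2% and 27.2% of its UMIs, and without them the log2 ratios were 5.28 and 3.65, chosen after seeing the data. After TIA, Spp1 in pericytes was thus spread over many cells, unlike in microglia, where its level was far lower. In naive pericytes 5 cells held most of its UMIs. In pericytes at 3 d, erythroid markers stood at 7960 CPM (163 in naive, 52.2 at 24 h, 5 of 5 detected, Hbb-bs the most abundant) and microglial markers at 654 CPM (228 in naive, 81.8 at 24 h, 9 of 9 detected, P2ry12, Sall1 and Cx3cr1 the most abundant of them in naive, at 24 h and at 3 d), and their part in the 3 d value was not tested. Cd44 stood at 18.0, 16.8 and 12.1 CPM in pericytes. Angptl4, the inhibitor of the lipase and chosen after its values were seen, had 1, 248 and 38 UMIs in pericytes and 12, 166 and 102 UMIs in endothelial cells.

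Pericytes held 21.4% of the Spp1 UMIs of the naive library, 79.5% at 24 h and 62.6% at 3 d, and microglia held 1.30%, 1.91% and 14.1%. Pericytes were 3.96%, 14.9% and 6.84% of the cells of these libraries. In naive the largest share of Spp1, 60.1%, lay in 9 fibroblast cells, too few to compare. The rise of Spp1 over whole libraries, from 308 UMIs in naive to 2198 at 24 h and 1206 at 3 d, was therefore mostly in pericytes. Of the Lgals3 UMIs, microglia held 13.4%, 69.5% and 10.3%, and of the Lpl UMIs 63.6%, 76.1% and 36.6%. An unnamed cluster of 103, 34 and 167 cells had microglial, border macrophage, monocyte and neutrophil markers. It held 59.8%, 14.3% and 79.9% of the Lgals3 UMIs and 9.70%, 13.9% and 56.4% of the Lpl UMIs. Both genes thus lay mostly in microglia at 24 h and mostly in that mixed cluster at 3 d.

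In the mixed cluster, Lgals3 stood at 22.9, 67.7 and 52.9 CPM and Lpl at 6.31, 149 and 61.8 CPM. Neutrophil markers summed to 1333, 460 and 5752 CPM there, with 8, 5 and 8 of 8 detected, and Csf3r led in naive and at 24 h and S100a8 at 3 d. Without the cells of the border macrophage sub-cluster, 60, 15 and 120 cells remained, Lgals3 had 1, 1 and 218 UMIs and Lpl 3, 89 and 368. For Lgals3 at 3 d this was 79.1-fold above naive, with an interval of 14.0-fold to 3138-fold. In these remaining cells, Lpl was thus already high at 24 h and Lgals3 at 3 d. The part of cells with neutrophil or monocyte markers in the 3 d levels was not tested.

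Border macrophages live at vessels and in the meninges, which had been taken away. The sub-cluster named by their markers, of which 9 of 10 passed the naming rule, led with H2-Eb1, H2-Aa, F13a1, H2-Ab1, Gm2682, Pf4, Cd209a, Nkg7, Mgl2 and Ms4a7, given as its 10 leading genes after their values were seen. The H2 genes of antigen presentation are thus among them, and dendritic cell markers summed to 157, 50.8 and 48.0 CPM, with 8, 5 and 7 of 8 detected and Cd209a, Flt3 and Cd209a the most abundant. The sub-cluster held 50, 22 and 60 cells, of which 29, 14 and 29 carried at least 3 markers each, and 19 of the 132 are also counted in the microglia class. Microglial markers summed to 9781, 6357 and 9503 CPM in them, with 9 of 9 detected and Cx3cr1 the most abundant, and their part in the values below was not tested. Spp1 stood there at 8.84, 111 and 10.1 CPM, and the 35 UMIs at 24 h came from 2 cells. Lgals3 stood at 63.0, 143 and 64.8 CPM, and its log2 ratio was 1.18 at 24 h (0.58 to 1.77) and 0.04 at 3 d. In these cells Lgals3 was already abundant in naive, where microglia had 1.67 CPM. Lpl stood at 14.4, 38.1 and 14.0 CPM from 13, 12 and 25 UMIs, Cst7 at 12.2, 15.9 and 15.1 CPM and Itgax at 6.63, 19.0 and 5.03 CPM. Axl stood at 18.8, 60.3 and 23.5 CPM, a log2 ratio of 1.68 at 24 h (0.66 to 2.72). Each of these genes was highest at 24 h, but Cst7 had 11, 5 and 27 UMIs and Itgax 6, 6 and 9. These are too few to order Cst7 at 24 h and 3 d.

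Apoe in border macrophages stood at 7144 CPM in naive, 13007 at 24 h and 2641 at 3 d, with log2 ratios of 0.86 (0.81 to 0.92) and -1.44 (-1.49 to -1.38). This is the reverse of the order in microglia, where 24 h was the lowest. At 24 h the 5 highest cells of 22 held 72.1% of these UMIs, against 31.0% in naive and 28.4% at 3 d. In the cells with at least 3 markers the levels were 9996, 23868 and 3784 CPM. The summed level of the 10 border macrophage markers moved the same way, at 2403, 4850 and 977 CPM, with all 10 detected and Mrc1, F13a1 and Stab1 the most abundant in turn. Neutrophil markers stood at 2867, 457 and 13975 CPM there, with 7, 5 and 8 of 8 detected, and S100a9, Csf3r and S100a8 led in turn. Astrocyte markers summed to 1183, 1089 and 1127 CPM there, with 9 of 9 detected and Slc1a2, Slc1a2 and Slc1a3 the most abundant. The cells held 6.04, 11.9 and 2.34 UMIs of Apoe for each UMI of these markers. In this sub-cluster 7 astrocyte and 4 monocyte markers also passed the thresholds for markers. The part of astrocyte or monocyte RNA in its Apoe level was not tested. Whether the cells counted as border macrophages were of 1 kind in the 3 libraries was not tested. Trem2 stood at 927, 622 and 892 CPM and Tyrobp at 1362, 1654 and 1177 CPM, and Gpnmb had 1, 0 and 0 UMIs. Of genes near them in function, Cd44 stood at 39.8, 162 and 41.3 CPM, a log2 ratio of 2.02 at 24 h.

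Astrocytes, 894, 239 and 1427 cells, held 77.6%, 78.1% and 84.0% of the Apoe UMIs of their libraries. Apoe stood at 11610 CPM in naive (11539 to 11681), 12869 at 24 h (12737 to 13001) and 12859 at 3 d (12800 to 12918), a log2 ratio of 0.15 at both times. Axl in astrocytes stood at 45.3, 57.3 and 55.1 CPM, with log2 ratios of 0.34 (0.07 to 0.60) and 0.28 (0.11 to 0.46). Both genes were thus less than 1.5-fold from naive in astrocytes. Of the Axl UMIs, astrocytes held 60.3%, 36.5% and 58.0% and pericytes 22.6%, 55.3% and 22.5%. In pericytes, Axl stood at 209, 243 and 203 CPM, and Apoe at 912, 236 and 1060 CPM, a log2 ratio of -1.95 at 24 h. Astrocyte markers in pericytes moved the same way, at 1318, 809 and 2173 CPM with 9, 7 and 9 of 9 detected and Atp1b2, Atp1b2 and Slc1a2 the most abundant, and their part in the Apoe value was not tested. Apoe stood at 1497, 1558 and 1479 CPM in oligodendrocytes, at 979, 856 and 1429 CPM in endothelial cells and at 595, 286 and 595 CPM in neuron-like cells.

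Trem2 and Tyrobp were far lower in the classes that are not immune than in microglia. In astrocytes, Trem2 stood at 39.3, 15.5 and 24.5 CPM and Tyrobp at 38.3, 17.2 and 27.4 CPM, where the 9 microglial markers summed to 483, 145 and 307 CPM, all were detected, and Cx3cr1, Sall1 and Cx3cr1 led in turn. In endothelial cells Trem2 stood at 30.1, 6.24 and 60.2 CPM and Tyrobp at 32.3, 2.34 and 74.1 CPM, where the markers summed to 429, 39.8 and 617 CPM with 9, 8 and 9 of 9 detected, Olfml3 at 0 at 24 h and Cx3cr1 the most abundant. In pericytes Trem2 stood at 19.3, 6.90 and 79.9 CPM and Tyrobp at 16.6, 5.91 and 77.8 CPM, and 5 cells held 67.2% of the Tyrobp UMIs at 3 d. In each of these 3 classes 24 h was the lowest library for both genes and for the markers. In oligodendrocytes Trem2 stood at 22.8, 21.6 and 40.2 CPM and Tyrobp at 17.0, 25.8 and 43.6 CPM, where the markers summed to 247, 159.8 and 375 CPM with 9 of 9 detected and Cx3cr1 the most abundant, so that naive was the lowest library for Tyrobp there. The part of microglial RNA in these values was not tested.

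Over the 18 levels of 6 classes in 3 libraries, log2 CPM of each gene was set against that of 15229 other genes by Pearson's r. These others had at least 100 UMIs, which Itgax, with 78, and Gpnmb, with 74, did not reach. The points share libraries and classes, so the values describe likeness and have no p. Most like Trem2 were the complement genes C1qb (0.995) and C1qa (0.994) and the Fc receptor Fcgr3 (0.992), and most like Tyrobp were C3ar1 (0.995), Ctss (0.994) and C1qb (0.993). Most like Lgals3 were Cst7 (0.858), itself of the 10 genes, Mmp12 (0.846) and Msr1 (0.831). Most like Lpl were Mapkapk2 (0.890), Mogs (0.885) and Slc30a7 (0.880), and most like Cst7 were Mapkapk2 (0.942), Irgc1 (0.941) and Med17 (0.934). Most like Spp1 were Perp (0.922), Kcnj12 (0.920) and Slc1a5 (0.920), and most like Axl were Pde8b (0.977), Tead3 (0.97) and Gm30075 (0.969). Most like Apoe were the metallothionein Mt1 (0.964), Tprkb (0.960) and Ddhd1 (0.945). For Itgax, Gm49723 (0.952), Gpr65 (0.951) and AI463229 (0.945) came closest, and for Gpnmb, Neu2 (0.929), Otc (0.928) and Gm26588 (0.918).

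Promoter windows of 250 bases before a transcript start, credited to RefSeq on GRCm38.p6, were found for 8 of the 10 genes, 11 windows in all. Some start points lie inside the gene as given above, by 6109 bases for the only window of Lgals3, by 567 and 790 for 2 of Apoe and by 1074 for the second of Spp1. They were searched on both strands for CACGTG, the core of the E-box that MiT factors bind, and for GAGGAAGT, a motif of the type bound by PU.1, a transcription factor of macrophages. CACGTG is held by 6.02% and GAGGAAGT by 2.44% of 32851 windows of this length. Among the 11 windows only 1 held either, that of Spp1, and it is printed for that reason and because Spp1 rose in microglia and pericytes. It is chr5:104434861-104435110 on the + strand, read 5′ to 3′, and the capitals mark GAGGAAGT.
Spp1 promoter window: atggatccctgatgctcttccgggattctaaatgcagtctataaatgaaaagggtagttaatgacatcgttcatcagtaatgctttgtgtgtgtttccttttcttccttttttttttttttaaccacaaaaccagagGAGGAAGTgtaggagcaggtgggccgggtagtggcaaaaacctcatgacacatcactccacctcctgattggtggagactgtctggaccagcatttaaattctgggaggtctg
The match is a description of these letters and says nothing of binding.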

How the data were processed

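Per the labels, live cells of 3 pooled mice gave 1 library for each of 3 conditions. The deposited values are UMI counts per cell and gene, which the authors made with Cell Ranger on mm10; the processing notes give version 3.1.0 and the file header 7.1.0. Cells had at least 500 genes and at most 7% of UMIs from mitochondrial genes, and genes were seen in at least 3 cells. Seurat 5.3.0 in R 4.3.3 log-normalized the counts, took 2000 variable features, regressed out UMI number and mitochondrial share, and clustered on 20 principal components at resolution 0.5. A cluster was named when at least 3 markers of a type were each seen in 10% or more of its cells and at least 2-fold above the other clusters, unless its 10 leading genes held more markers of another type, and 2 immune clusters stayed unnamed. Of the microglial markers and homeostatic genes used, 1 is not reported here, and their sums, counts and medians leave it out. Clusters with Ptprc in at least 50% of cells were clustered again. Scrublet in scanpy 1.11.5 called 3.04%, 0.490% and 2.93% of cells doublets in the naive, 24 h and 3 d libraries, which an alternative left out. UMIs were summed per class and library in Python 3.11.15 with numpy 2.4.6, scipy 1.17.1 and pandas 2.3.3 and scaled to CPM. Intervals are exact Poisson for levels, Clopper-Pearson for shares and conditional binomial for ratios. A sum or share of 0 was set to 3 UMIs or cells to give a bound, and no ratio was given with both sums at or under 3. Genes counted as at least 2-fold changed had at least 30 UMIs over both sums. Likeness used log2 of CPM plus 1 against other genes with at least 100 UMIs, a minimum not asked of the 10 genes. Named were the 10 genes, the 3 highest and 3 lowest ratios at each time among the genes of 14 other lists, the partners used for a role, and the 3 genes most like each; others are marked as chosen after their values were seen. The 10 genes and the lists were chosen with earlier results of these data known. Alternatives concerned the cell filter, resolution, regression, variable features, doublets, the cells taken as microglia, scaling, count and fold thresholds, the mean of per-cell CPM, thinning and the 5 highest cells.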

Additional observations from a re-analysis of the deposited data

Results flagged for a closer look

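In microglia, the log2 ratio of Apoe was -0.37 at 24 h and 0.60 at 3 d, on either side of naive. In the cells with at most 1 UMI of other classes' markers it was -1.44 and -0.56, and with all immune clusters pooled 0.47 and -0.36. In astrocytes it was 0.15 at 24 h, where that of microglia was negative. At 3 d, Trem2 lay below naive in microglia and above it in 3 other classes, with log2 ratios of 0.82 in oligodendrocytes, 1.00 in endothelial cells and 2.05 in pericytes. Tyrobp did the same, with 1.36 in oligodendrocytes, 1.2 in endothelial cells and 2.23 in pericytes. In astrocytes both lay below naive at 3 d, with -0.68 for Trem2 and -0.48 for Tyrobp, and in neuron-like cells Trem2 stood at 32.0 CPM in naive and 28.4 at 3 d and Tyrobp at 37.6 and 25.7. The microglial markers summed to 247, 159.8 and 375 CPM in oligodendrocytes in naive, 24 h and 3 d, with 9 of 9 detected and Cx3cr1 the most abundant of them, to 429, 39.8 and 617 CPM in endothelial cells and to 228, 81.8 and 654 CPM in pericytes. None of these differences between times or classes was tested, since there was 1 library per condition.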

How the results depend on the processing

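No paired analysis was possible because each condition had 1 library of pooled mice. Of the log2 ratios of these genes under the alternatives, 192 kept sign and interval, 20 moved and 7 reversed. The cause was not tested for any of the following. In cells with at most 1 UMI of other classes' markers (88, 28 and 89 microglia), 2 genes were higher and 1 lower at 24 h and 0 higher at 3 d, the medians of the other disease-associated genes were 0.59 and -0.029, and the ratios at 24 h were -1.44 for Apoe, -0.080 for Trem2 and 0.20 for Tyrobp and at 3 d -0.63 for Lpl, -0.56 for Apoe, -0.025 for Trem2 and 0.063 for Tyrobp. With the unnamed immune clusters added, ratios at 24 h were 3.58 for Lgals3, 0.47 for Apoe and 0.041 for Tyrobp and at 3 d 1.74 for Lpl and -0.36 for Apoe. With a minimum of 100 UMIs, 2 genes were higher at 24 h and 1 at 3 d. At 1.5-fold, 6 were higher at 3 d. In cells thinned to 2000 UMIs, 1 was higher at 24 h and 0 at 3 d, fewer UMIs being left, and the median of the other disease-associated genes at 3 d was -0.021; scaled by the median ratio of genes, which shifts log2 ratios by 0.07 and 0.06, it was -0.036. Without the 5 highest cells, 3 genes were higher at 24 h, and the ratios were 3.36 for Lpl at 24 h and, at 3 d, at least 2.81 for Spp1 and 1.08 for Apoe. By the mean of per-cell CPM, Lgals3 had 4.66 and Lpl 3.41 at 24 h, and Apoe 0.50 and Axl 0.98 at 3 d. Without regression, Lgals3 had 2.78 and Lpl 1.87 at 3 d. Apoe at 24 h was -0.24 at resolution 0.2 and -0.54 with the listed genes out of the variable features. Chosen after seeing the data, Apoe at 3 d was 0.72 without the border macrophage sub-cluster, and Spp1 in pericytes was 3.86 at 24 h and 2.10 at 3 d with the cell filter read literally and 5.28 and 3.65 without the 5 highest cells. No value could be given for Spp1 at 24 h without the 5 highest cells, for Spp1 in pericytes with few UMIs of other markers, nor for scarce genes with too few UMIs after thinning or in those purer cells. Depth limits Gpnmb most, with 6 UMIs in microglia, and the 270 microglia at 24 h limit shares of cells.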
